A study of Ovis aries with 36 samples.

Results

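METTL21C and SMYD2 are lysine methyltransferases, enzymes that add methyl groups to lysine side chains of proteins. They were followed across 9 muscles of 4 lambs by RNA-Seq. Each was taken as the assembled locus with an Ensembl gene and a fixed span, given with the coordinates, that holds the published position of the gene. They are 2 of 31136 assembled loci and 2 of the 12461 loci with enough counts to be tested. The pair was chosen by measured differences between muscles in these same samples, namely the contrasts ST vs SS and SM vs SS for METTL21C, and SM vs SS and LL vs SS for SMYD2, where SS is the supraspinatus of the shoulder. For METTL21C and SMYD2, the levels in those contrasts are therefore given as a description with no test, and so are all their other contrasts with SS. The tests of these genes are for differences among the 5 muscles outside those contrasts and among the 4 animals.

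The animals were unrelated male Poll Dorset cross-bred lambs, 14 months old and 67 to 72 kg in live weight, raised on grassland and finished with soy and sorghum. No lamb carried a treatment, and every lamb gave 1 sample of each muscle. From the shoulder came SS (Supraspinatus). From the loin came LL (Longissimus lumborum) and PM (Psoas major). The hip and thigh gave GM (Gluteus medius), GB (cranial Gluteobiceps), ST (Semitendinosus), SM (Semimembranosus), AD (Adductor) and RF (Rectus femoris). The whole tissue was ground, so a lower level cannot be told apart from fewer fibers or other cells that express the gene.

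METTL21C is an enzyme of skeletal muscle that methylates chaperone proteins, among them the ATPase VCP, and in rodents it has been placed mainly in slow fibers. SMYD2 carries a SET domain split by a zinc-binding MYND domain. It was first described on histone H3, and in muscle cells it methylates the chaperone HSP90, which associates with titin in the sarcomere. Slow fibers contract slowly on oxidative metabolism and use their own troponins, light chains and calcium pump, and their share differs between postural and fast muscles.

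METTL21C (ENSOARG00000005123) lies on chromosome 10 from 78272110 to 78285629 of Oar_v3.1, a span of 13520 bases. SMYD2 (ENSOARG00000009207) lies on chromosome 12 from 67363488 to 67418074, a span of 54587 bases. Values belong to the whole locus and do not separate exons, introns or UTRs. In the RefSeq annotation of the assembly ARS-UI_Ramb_v3.0, the protein-coding genes beside METTL21C are TPP2 and CCDC168, and those beside SMYD2 are PTPN14 and PROX1. METTL21C was also a target of the study's quantitative PCR, whose measurements were not analysed here. The primer pair is shown because it defines the transcript that the study assayed besides sequencing, and each primer has 21 bases, written 5′ to 3′ with nothing marked in capitals.
METTL21C forward: tcggagattgagttcctctgt
METTL21C reverse: ccagctacactcaggagaact

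Levels are in CPM, which are counts relative to a library size adjusted by the trimmed mean of M-values (TMM), and log2FC is the fitted log2 ratio of the first muscle to the second. Depth was 3699148 to 6427422 counts per sample, and 4 short loci held 65.7% to 78.3% of them. A floor of 3 counts was 0.365 to 1.02 CPM. Animal 1 had the lowest total in 9 of 9 muscles, with a median of 4316863 counts against 6004722 to 6080713 in the other animals. METTL21C had 1969 counts in all, 4 to 494 per sample with a median of 16.5, and SMYD2 had 4719, 52 to 195 per sample with a median of 126.5. The biological coefficient of variation was 0.512 for METTL21C and 0.144 for SMYD2, against 0.195 for all tested loci together.

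METTL21C was highest in the supraspinatus in 3 of the 4 lambs. In SS it had 15.6, 41.8, 87.5 and 88.2 CPM in animals 1 to 4, a mean of 58.3 ± 35.8 (SD, n = 4). The lowest of these values came from animal 1, and the other 3 lay above every sample of the other 8 muscles. METTL21C was chosen by contrasts with SS, so this is a description. The share of tested loci of which it holds is not given here. In counts, SS of animal 3 had 494 reads, with an exact Poisson 95% interval of 79.9 to 95.6 CPM, and SS of animal 1 had 68 reads, with 12.1 to 19.7 CPM. Such intervals cover counting error only.

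Next to SS in the order of means came a group of muscles in which animal 1 stood above the others. METTL21C had 18.8, 4.10, 2.39 and 2.86 CPM in LL of animals 1 to 4, a mean of 7.03 ± 7.86. In GM it had 14.2, 6.12, 0.743 and 4.62 CPM, a mean of 6.43 ± 5.67. In AD it had 17.8, 2.90, 3.1 and 1.77 CPM, a mean of 6.40 ± 7.65. These means rest on animal 1, since without it LL had 3.11 ± 0.882, GM 3.83 ± 2.78 and AD 2.59 ± 0.718 CPM (n = 3). Animal 1 in LL and AD was also above its own SS.

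The other muscles had METTL21C at a few reads per library. In SM it had 5.79, 2.26, 2.40 and 3.64 CPM in animals 1 to 4 (mean 3.52 ± 1.63), and in GB it had 4.07, 3.22, 2.11 and 1.41 CPM (mean 2.70 ± 1.18). In ST it had 6.64, 0.871, 0.989 and 1.29 CPM, a mean of 2.45 ± 2.80 that fell to 1.05 ± 0.215 without animal 1. Animal 1 was again the highest sample in all 3 of these muscles. In PM it had 3.12, 0.777, 3.30 and 0.857 CPM (mean 2.01 ± 1.39), and in RF it had 1.58, 2.33, 0.998 and 1.09 CPM (mean 1.5 ± 0.609). The lowest count of the series was 4 reads, in ST of animal 2, where the exact Poisson interval ran from 0.237 to 2.23 CPM. Every pair of muscles that follow each other in the order SS, LL, GM, AD, SM, GB, ST, PM and RF overlapped in range, SS and LL included.

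**Figure D1:**
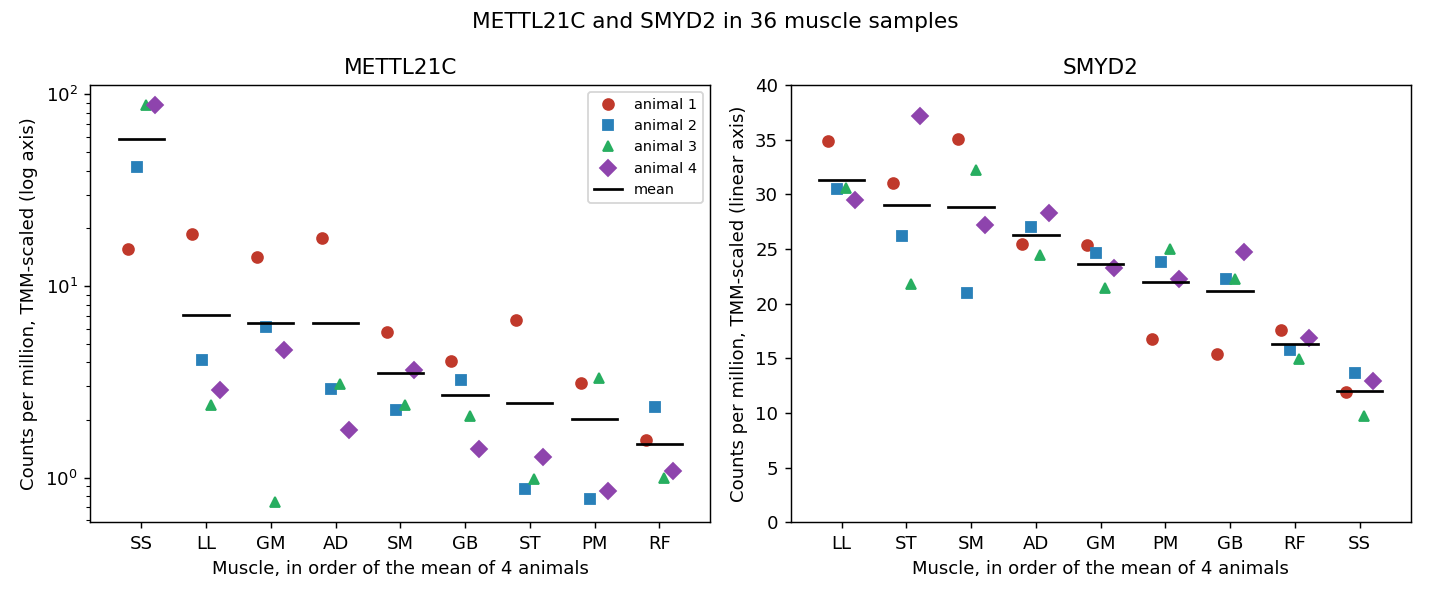
CPM of METTL21C (left, log axis) and SMYD2 (right, linear axis) in each of 36 samples, with muscles in order of their mean, symbols for the 4 animals and a line at the mean. METTL21C reached 41.8 to 88.2 CPM in SS of animals 2 to 4 and 15.6 in animal 1, and SMYD2 was lowest in SS, at 9.74 to 13.6 CPM.

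SMYD2 was lowest in the supraspinatus, and in all 4 lambs. In SS it had 11.9, 13.6, 9.74 and 12.9 CPM in animals 1 to 4, a mean of 12 ± 1.69 (n = 4). In RF it had 17.5, 15.7, 15 and 16.9 CPM, a mean of 16.3 ± 1.15. All 4 SS samples lay below all 32 samples of the other muscles, and SS was the lowest muscle in 4 of 4 animals. SMYD2 was chosen by contrasts with SS, so this separation is a description. The share of tested loci of which it holds is not given here.

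SMYD2 was highest in LL, ST and SM. In LL it had 34.8, 30.5, 30.6 and 29.5 CPM in animals 1 to 4, a mean of 31.3 ± 2.38. In ST it had 31.1, 26.1, 21.8 and 37.1 CPM (mean 29.0 ± 6.61), and in SM it had 35.1, 20.9, 32.3 and 27.2 CPM (mean 28.9 ± 6.20). The LL samples were close together, whereas those of ST and SM were spread more widely between animals, and the first place changed from animal to animal, with SM in animals 1 and 3, LL in animal 2 and ST in animal 4.

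The remaining muscles were intermediate for SMYD2. In AD it had 25.4, 27, 24.4 and 28.3 CPM (mean 26.3 ± 1.71), and in GM it had 25.3, 24.6, 21.4 and 23.2 CPM (mean 23.7 ± 1.72). In PM it had 16.7, 23.8, 25 and 22.3 CPM (mean 21.9 ± 3.65), and in GB it had 15.4, 22.3, 22.2 and 24.7 CPM (mean 21.2 ± 4.02). Animal 1 gave the lowest value in both PM and GB, at a level near that of RF. Neighbours in the order LL, ST, SM, AD, GM, PM, GB and RF overlapped in range. RF and SS did not, which is part of the separation of SS described above.

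Compared within animals, the distance of METTL21C between SS and another muscle was wide and uneven, and that of SMYD2 was narrow and even. On the scale of log2 CPM (prior count of 2), METTL21C in SS exceeded RF by 4.75 ± 1.48 (mean ± SD of 4 differences), PM by 4.55 ± 1.70 and ST by 4.52 ± 2.26. The smallest distance was that to LL, 3.19 ± 2.43, where animal 1 had a difference of -0.27 and animals 2 to 4 had 3.24, 5.0 and 4.79. SS was above the other muscle in 4 of 4 animals against 6 muscles and in 3 of 4 against LL and AD. The fitted log2FC of METTL21C was -5.09 for ST vs SS, -4.37 for SM vs SS and -3.59 for LL vs SS. All 3 have SS in common, and without animal 1 the value for LL vs SS was -4.51 and that for ST vs SS was -6.07.

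SMYD2 in SS was below each of the 8 muscles in 4 of 4 animals. The mean difference of SS from the other muscle was -1.36 ± 0.24 against LL, -1.23 ± 0.25 against ST, -1.22 ± 0.49 against SM and -1.11 ± 0.14 against AD. It was -0.96 ± 0.15 against GM, -0.84 ± 0.35 against PM, -0.78 ± 0.34 against GB and -0.43 ± 0.18 against RF, all on the log2 CPM scale. Thus the distance to RF was the shortest and that to LL the longest. The fitted log2FC was 1.38 for LL vs SS, 1.25 for ST vs SS and 1.24 for SM vs SS, and the range on leaving out each animal in turn was 1.11 to 1.49.

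**Figure D2:**
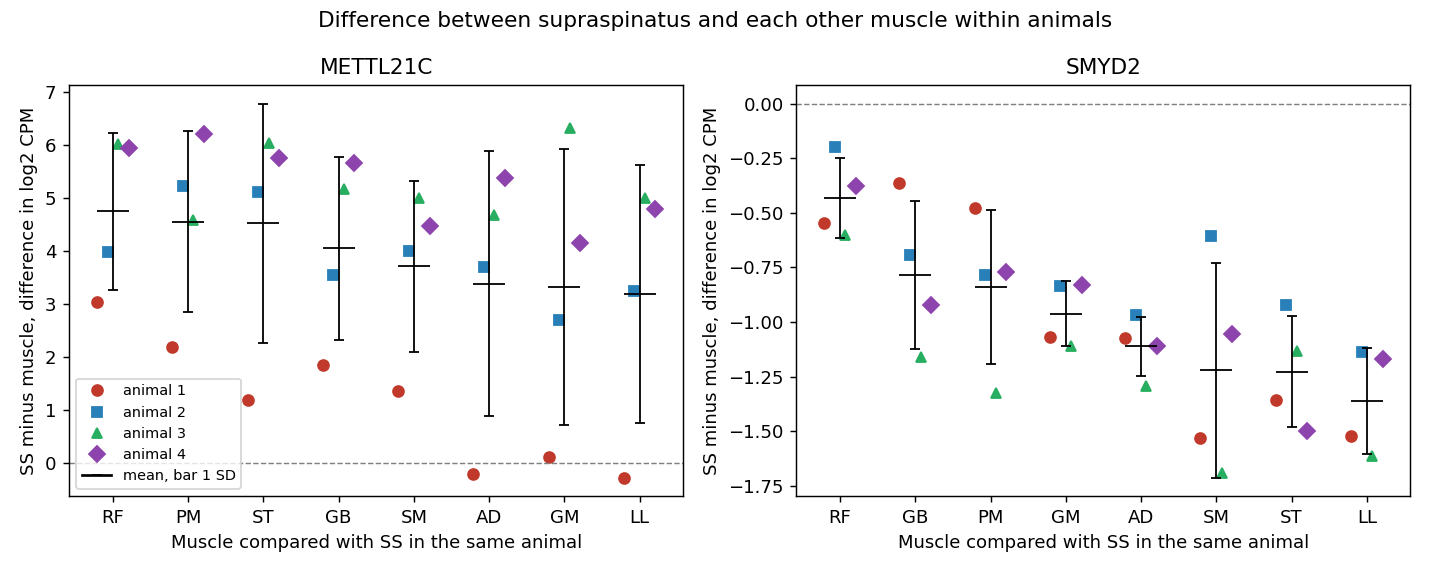
Difference in log2 CPM between SS and each other muscle of the same animal for METTL21C (left) and SMYD2 (right), with symbols for the 4 animals, a mark at the mean and bars of 1 SD. The METTL21C differences of animal 1 lie below those of the other animals in every muscle, down to -0.27 against LL, and all SMYD2 differences are below 0.

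Among GB, GM, RF, AD and PM, neither gene passed the FDR of 0.01 of edgeR's quasi-likelihood F test. SMYD2 had an adjusted p of 0.0760 and METTL21C of 0.240, and 1.08% of tested loci passed. Adjusted p over the alternative settings was 0.0342 to 0.309 for SMYD2. For METTL21C it was 0.0516 to 0.512 except without a filter on low counts, where it was 5.72e-12 and the cause was not tested.

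Within these 5 muscles, 0 of 10 pairs passed an FDR of 0.01 with an absolute log2FC above 1 for either gene in edgeR, and 4 of 10 pairs of each gene had an unadjusted p under 0.05. DESeq2 and edgeR's likelihood ratio test also gave 0 for both genes, whereas the quasi-likelihood test with no filter on low counts called 4 pairs of METTL21C and 0 of SMYD2. The share of all tested loci that passed was 0% for GB vs GM and for GM vs AD, 0.0401% for AD vs PM, 0.0883% for GB vs PM and 0.0963% for GM vs PM. It was 0.128% for GB vs AD, 0.169% for GB vs RF, 0.233% for RF vs AD, 0.377% for GM vs RF and 0.49% for RF vs PM. The pair nearest to the threshold was RF vs AD for SMYD2, with a log2FC of -0.69 (SE 0.05 of the 4 within-animal differences) and an adjusted p of 0.0256 in edgeR's quasi-likelihood test. RF was below AD in 4 of 4 animals, but neither the adjusted p nor the fold change met the limits used for the pairs. The ranges of both muscles did not overlap, and the share of tested loci of which this holds is not given here. SMYD2 in GM vs RF had a log2FC of 0.54 (SE 0.04) and an adjusted p of 0.0997, with GM higher in 4 of 4 animals.

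For METTL21C, the pair with the smallest adjusted p was GM vs RF, with a log2FC of 1.83 and an adjusted p of 0.242 (edgeR). Its within-animal differences in log2 CPM had a mean of 1.42 and an SE of 0.67. GM was higher in 3 of 4 animals, and the range of GM, 0.743 to 14.2 CPM, enclosed that of RF. RF vs AD had a log2FC of -1.71, with RF lower in 4 of 4 animals and an adjusted p of 0.356 (edgeR). The within-animal differences of RF vs AD had a mean of -1.36 and an SE of 0.67. Neither pair passed the threshold.

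The order of the 4 animals in METTL21C changed with the muscle. Animal 1 was the highest in 6 of the 8 muscles outside SS, with a median of 6.21 CPM over these muscles against 2.62, 2.25 and 1.59 in animals 2, 3 and 4. Its level was 6.89 times the mean of the other animals in AD, 6.32 times in ST, 6.02 times in LL and 3.72 times in GM, but 1.07 times in RF. In SS the mean of the others was 4.66 times the level of animal 1. SS exceeded the median of the other 8 muscles 2.50 times in animal 1, 16.0 times in animal 2, 38.9 times in animal 3 and 55.6 times in animal 4.

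Over all 36 samples, the animal terms for METTL21C had an adjusted p of 0.0244 in edgeR's F test, above the threshold of 0.01 that 17% of tested loci passed. This test takes an animal's shift as equal in every muscle. In the 32 samples outside SS, an alternative chosen after seeing the data, the adjusted p was 1.05e-05, and 14.1% of tested loci passed. Without animal 1 in the full set it was 0.978. SMYD2 gave an adjusted p of 0.692 over 36 samples and of 0.775 outside SS.

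Animal 1 also had the lowest depth in every muscle, and the part of depth or RNA quality in its METTL21C values was not tested. In the same SS library of animal 1, SMYD2 stood at 0.983 times the mean of the other animals, and SS was the lowest of the 9 muscles of animal 1 for SMYD2. With 1 sample per muscle and animal, the difference in METTL21C between animal 1 and the others in SS has no replicate of its own. The highest METTL21C level of animal 1 was 18.8 CPM, in LL, while SS of the other animals had 41.8 to 88.2 CPM. Whether an exchange of samples or a difference between animals lies behind this was not tested.

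Of the variation of log2 CPM in METTL21C over the 36 samples, 67.7% lay between muscles, 9.70% between animals and 22.6% in the rest. For SMYD2 the shares were 81.9%, 1.41% and 16.7%. The medians over tested loci were 28.7% for muscles, 15.4% for animals and 51.5% for the rest. As both genes were named for differences between muscles, a high share between muscles is a description.

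Of the genes related to these enzymes, few could be set beside them, since the deposited tables hold no symbols and names were paired through coordinates that the study gives. Of 50 lysine methyltransferases listed, METTL21C and SMYD2 were the 2 paired with a tested locus, and 0 of 3 reported substrates of METTL21C and 0 of 11 substrates and partners of SMYD2 were paired. Markers of fat, endothelial, connective tissue, blood, satellite and nerve cells, in 5 lists of 5 genes, were paired with 0 loci, so the other cells of these samples were not analysed here. For slow fibers, 8 of 15 listed genes were paired: the myosin light chain MYL3, the troponins TNNT1, TNNC1 and TNNI1, the tropomyosin TPM3, the calcium pump ATP2A2, the calcium store protein CASQ2 and the Z-disc protein MYOZ2. Their levels differed widely, with 463 CPM for ATP2A2 in SS of animal 4 and a mean of 1.51 CPM for CASQ2 in ST. Measured in ground whole tissue, these levels do not show which cells express the genes.

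All 8 slow fiber genes passed the joint test of 9 muscles (edgeR's F test, FDR of 0.01), as did 8.94% of tested loci. At an FDR of 0.01 with a log2FC under -1, 8 of 8 were called higher in SS than in ST, 6 of 8 than in SM and 7 of 8 than in LL. The shares of tested loci so called were 1.52%, 2.42% and 1.16%. Genes that missed these limits also had a negative log2FC, MYL3 (-0.50) and TNNT1 (-1.12) for SM vs SS and CASQ2 (-0.89) for LL vs SS. The study named the 8 slow fiber genes for such contrasts in the same samples, and they could be paired for that reason. Neither these counts nor their direction are therefore independent evidence, and nothing is read from the shares beside them. The count against SM fell to 2 without animal 2 or without animal 3, and to 1 with no block for animals, and that against LL fell to 3 without animal 3. MYOZ2 had a log2FC of -4.30 for ST vs SS (adjusted p = 6.15e-12 in edgeR's test), -1.30 for SM vs SS and -2.32 for LL vs SS. The SE of its within-animal differences in log2 CPM for ST vs SS was 0.24. TPM3 had -3.23, -1.16 and -1.67 in the same order. ATP2A2 had -2.85, -1.88 and -1.74.

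METTL21C and the slow fiber genes shared a higher level in SS than in ST, but not the order of the other muscles. In animals 2 to 4, SS exceeded the median of the other muscles 16.0 to 55.6 times for METTL21C and 0.699 to 3.59 times for the 8 slow genes, and 0 of 8 slow genes reached the ratio of METTL21C. In animal 1, METTL21C had a ratio of 2.50, and the slow genes had 0.689 to 2.97, with 2 of 8 above METTL21C. SS was the highest muscle for 1, 2, 3 and 5 of the 8 slow genes in animals 1 to 4, and where it was not, PM was. In PM, METTL21C ranked eighth of 9 muscles by mean, on 5 to 16 reads per library. Without animal 1, its mean of 1.65 CPM in PM lay above those in RF (1.47) and ST (1.05). PM was its lowest muscle in animals 2 and 4 but its second highest in animal 3, at 3.30 CPM.

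The shift of animal 1 outside SS was not seen in the slow fiber genes. The median of METTL21C over the 8 muscles was 2.89 times the mean of the other animals' medians in animal 1. For the slow genes this ratio was 0.637 to 1.07, lowest for ATP2A2 and highest for MYL3.

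**Figure D3:**
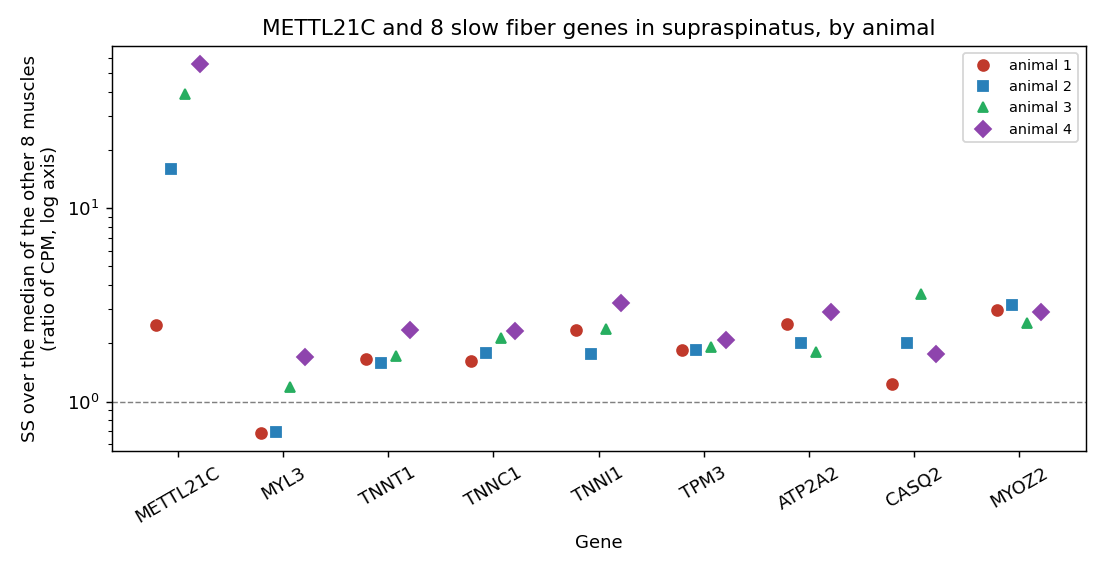
Ratio of CPM in SS to the median CPM of the other 8 muscles (log axis) for METTL21C and 8 slow fiber genes, with a symbol for each of 4 animals and a dashed line at a ratio of 1. METTL21C reached 16.0 to 55.6 in animals 2 to 4 and 2.50 in animal 1, and the slow genes lay between 0.689 and 3.59.

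Of fast fiber genes, 1 of 18 listed was paired, the calcium buffer PVALB, and of 14 regulators of slow fibers 1, the developmental factor EYA1. Both were paired because the study named them for contrasts with SS in these samples, so their levels are a description. EYA1 had 4.63 ± 1.04 CPM in SS, 2.12 ± 0.824 in ST, 0.658 ± 0.503 in SM and 0.383 ± 0.158 in LL. PVALB had 5.63 ± 7.84 CPM in SS and 5.68 ± 2.58 in ST, with 0.152 ± 0.178 in SM and 0.134 ± 0.171 in LL, which are under the floor, so that PVALB was tested through the muscles where it is high.

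The loci whose log2 CPM most resembled SMYD2 were sought among 4464 tested loci with an Ensembl gene and a mean of at least 5 CPM, over 36 samples after subtracting each animal's mean. These correlations are a description, because the samples share 4 animals. The 5 most like had an r of 0.888 to 0.899 over the 36 samples that chose them. They had 0.792 to 0.829 over the 32 of these samples without SS, which is therefore no separate check. They include HOXD8, a homeobox factor of limb and trunk patterning (r = 0.895), a locus at the position of CHI3L1, a secreted chitinase-like protein (r = 0.888), and 3 loci without a paired name, of which ENSOARG00000009602 came first (r = 0.899).

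HOXD8 fell from 14.0 ± 3.91 CPM in LL to 1.42 ± 1.07 in RF and 0.603 ± 0.627 in SS, the last within the range of the floor. The CHI3L1 locus, which spans 2 Ensembl genes, had 72.9 ± 8.67 CPM in LL, 20.4 ± 19.4 in RF and 4.72 ± 3.60 in SS. For both, as for SMYD2, RF was the next lowest muscle after SS, but their range between muscles was wider than that of SMYD2. Both were picked for their likeness to SMYD2 in these samples, and the study named them for contrasts with SS. The shared order is therefore a description.

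The loci of most opposite pattern to SMYD2 included KCNMA1, a calcium-activated potassium channel (r = -0.83), and ENSOARG00000020761 (r = -0.80). KCNMA1 had 21.8 ± 0.611 CPM in SS, 16.1 ± 1.45 in RF and 7.76 ± 0.643 in LL. KCNMA1 was highest in SS and lowest in LL, the muscles at the ends of the SMYD2 order. It was picked for its opposite pattern in these samples, and the study named it for contrasts with SS. This order is therefore a description and no separate evidence.

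**Figure D4:**
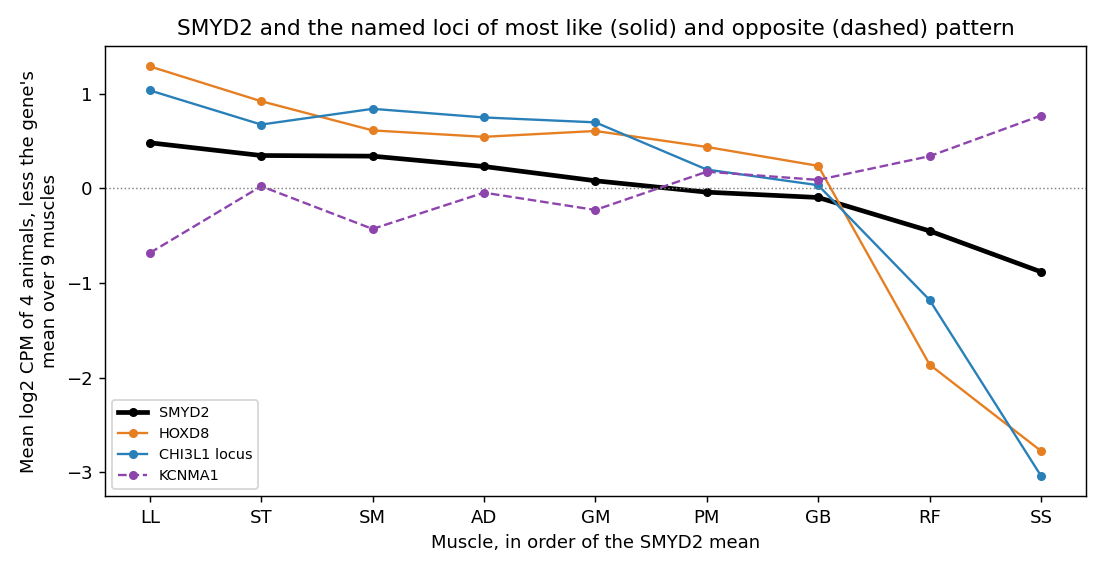
Mean log2 CPM of 4 animals in each muscle, less the mean over 9 muscles, for SMYD2 (thick line), HOXD8 and the CHI3L1 locus (solid) and KCNMA1 (dashed), with muscles in the order of SMYD2. SMYD2 runs from 0.48 in LL to -0.88 in SS, HOXD8 from 1.29 to -2.77, and KCNMA1 from -0.68 to 0.77.

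METTL21C had no locus as near to it, and the part of its low counts in this was not tested. Its median was 16.5 counts per sample, against 126.5 for SMYD2. Its 5 most like loci had an r of 0.613 to 0.713 over 36 samples and of 0.0179 to 0.542 without SS, and none carries a paired name. The first was ENSOARG00000010069 (r = 0.713), which had 71.9 ± 19.4 CPM in SS and 4.4 ± 1.13 in PM, but whose r without SS was 0.208. Unlike METTL21C, this locus was also high in SM (19.7 ± 15.2) and GB (17.1 ± 10.5). Its span holds the position that the study gives for MYL6, a myosin light chain gene that the study named for contrasts with SS. That position fell within 2 tested loci, so the name was not paired. MYL6 is therefore not among the 8 slow fiber genes compared with METTL21C. The 3 most opposite loci had an r of -0.63 to -0.61, with ENSOARG00000015482 at the end.

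METTL21C and SMYD2 themselves were opposite in SS but not outside it. Their log2 CPM, less each animal's mean, had a Pearson r of -0.40 and a Spearman rho of 0.018 over 36 samples, and 0.458 and 0.428 over the 32 samples without SS. RF, for example, had the lowest mean of METTL21C and the next lowest of SMYD2, while LL was high in both. Without animal 1, the METTL21C mean was lower in ST (1.05 CPM) than in RF (1.47 CPM). These values share the 4 animals and the muscles, and no test was made.

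A second locus, without an Ensembl gene, has exactly the span of METTL21C, so its reads and those of METTL21C cannot be told apart with certainty. It held 61 counts in 36 samples, 3.1% of the count of METTL21C, and 0 counts in 21 of 36 libraries. In SS it had 0, 6, 18 and 15 counts in animals 1 to 4, that is 39 of the 61. Of the 22 counts outside SS, 11 came from animal 1, with 7 in LL and 3 in AD. Thus SS of animals 2 to 4 and LL and AD of animal 1 held most of its reads, while SS and GM of animal 1, where METTL21C had 15.6 and 14.2 CPM, held 0.

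The nearest tested neighbour of each gene did not pass the joint test of 9 muscles. On chromosome 10, the locus from 78218287 to 78270110 had 17.3 ± 1.36 CPM in SS and means of 15.5 to 21.7 CPM elsewhere, with an adjusted p of 0.159 among 9 muscles (edgeR's F test). On chromosome 12, the locus from 67166953 to 67359972 had 25.1 ± 4.70 CPM in SS and means of 23.5 to 32.9 CPM elsewhere (adjusted p = 0.150). Within 500 kb, 3 loci beside METTL21C and 3 beside SMYD2 were tested, and 1 of each 3 passed the joint test, which 8.94% of all tested loci passed. These were the locus on chromosome 10 from 78456599 to 78473791, with 13.4 ± 8.79 CPM in SS and means of 4.88 to 11.4 elsewhere (adjusted p = 0.00444), and the locus on chromosome 12 from 67668816 to 67719470, with 6.80 ± 2.28 CPM in SS and means of 1.57 to 6.09 elsewhere (adjusted p = 0.000982). The latter had its highest mean in SS and its lowest in ST, and its log2 CPM, less each animal's mean, had an r of -0.41 with that of SMYD2 over 36 samples, a description over shared animals.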

How the data were processed

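RNA from 36 samples (9 muscles, 4 lambs) was sequenced by the authors with paired-end reads, aligned to Oar_v3.1 with Tophat 2.0.13, assembled with Cufflinks 2.2.1 together with the Ensembl annotation, and counted per locus with htseq-count. The deposited values are raw whole-number counts without normalization. The strand and overlap settings of the counting and the version of htseq-count are not given in the sources used here. Each table has 31530 entries, and 394 repeats of a locus were removed. Totals were 3699148 to 6427422 counts per sample, and 3 counts equal 0.365 to 1.02 CPM, a floor that covers counting error only.

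R 4.3.3 with edgeR 4.0.16 was used, and DESeq2 1.42.0 as an alternative. filterByExpr by muscle left 12461 loci. After TMM normalization of the full library sizes, muscle and animal were fitted to all samples and tested with the quasi-likelihood test and Benjamini-Hochberg adjustment over all tested loci, at an FDR of 0.01 and, for pairs of muscles, an absolute log2FC above 1. The procedure was tested on simulated data for RF vs AD. It called 100 of 100 loci given the largest changes and 26 of 50 changed 2-fold. The changed loci had a mean of at least 5 CPM, a smaller spread than METTL21C and no shift between animals. The simulation therefore does not bear on the tests of METTL21C. Log2 CPM used a prior count of 2, and levels are means ± SD over animals.

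Groups and pairing come from the labels, in which the muscles of 1 animal share its number. Samples of 1 animal deviated together from their muscle means (mean r of 0.236 over 144 pairs, against -0.078 over 432 pairs of different animals and muscles). Deviations from a muscle mean cancel out over the animals, so the second value is tied to the first and is no separate baseline.

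METTL21C, SMYD2 and the gene lists were chosen with earlier results of these data known. Symbols were paired through coordinates in the study, which had to overlap exactly 1 tested locus by at least 95%, and 30 of 39 names were paired. RefSeq identifiers matched 0 loci and gave neighbouring names only. Named besides these genes are paired list members, loci within 500 kb, and the 5 most like and 3 most opposite loci by correlation, with few unpaired identifiers. Alternatives were other tests, size factors, filters and samples, and each animal left out. Some results that this rule covers are not reported here.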

Additional observations from a re-analysis of the deposited data

Results flagged for a closer look

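In 3 of 18 groups of 4 samples (9 muscles for each of the 2 genes), 1 sample stood apart from the others by Dixon's criterion, whose critical value for 4 samples is 0.829 and which chance passes in about 1 in 20 groups. All 3 are METTL21C in animal 1. In ST, animal 1 had 6.64 CPM and the others 0.871 to 1.29 CPM. In LL, animal 1 had 18.8 CPM and the others 2.39 to 4.10 CPM. In AD, animal 1 had 17.8 CPM and the others 1.77 to 3.1 CPM. The gap to the nearest sample took 0.928 of the range in ST, 0.896 in LL and 0.917 in AD. No SMYD2 sample stood apart in this way in any of the 9 muscles. These 3 libraries were also the shallowest of their muscles, and the part of depth in the values was not tested.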

How the results depend on the processing

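Of 166 comparisons of a value with its counterpart under another setting, 155 stayed within the replicate spread or on the same side of the threshold, and 0 reversed. SMYD2 kept its side of the threshold in the tests among muscles and among animals under every setting run. For METTL21C among animals, the adjusted p of 0.0244 became 0.00495 with DESeq2, 0.000244 with the likelihood ratio test, 0.00474 in the 20 samples of GB, GM, RF, AD and PM, 1.05e-05 in the 32 samples outside SS (chosen after seeing the data) and 2.70e-17 with no filter on low counts. Leaving out 1 animal gave 0.0358 to 0.978, the highest without animal 1, and a robust estimate of the spread, also added later, gave 0.0886. With no filter, METTL21C also had an adjusted p of 5.72e-12 among the 5 muscles and 4 of 10 pairs called, and the cause was not tested. With no replicate block, the adjusted p of edgeR's F test among the 5 muscles was 0.512 for METTL21C and 0.213 for SMYD2. In that setting 0 pairs were called for each. The number of slow fiber genes called higher in SS than in SM went from 6 to 1. Leaving out 1 animal, a setting added later for the slow fiber genes, gave 2 to 6 of them against SM and 3 to 7 against LL. The replicate block, meaning the animal, moved no other count by over 1.5 times and changed no other call of the 2 genes. At least 10 counts in every sample left no value for METTL21C. METTL21C had few reads in most libraries outside SS, and how far depth limits its tests there was not tested.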
